A study of Mus musculus with 12 samples.

Results

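The microRNA repertoire of freshly isolated mouse cardiomyocytes was read in 3 small RNA libraries, which are 3 of the 12 samples of the series. The cells came from hearts of wild-type FVB/NJ females, an inbred strain, at 12 weeks of age, with no treatment and no altered allele. Hearts were perfused and digested with collagenase, the myocytes were set apart by gravity, and their RNA was taken at once. The libraries were built with the TruSeq small RNA kit, which ligates adapters to short RNAs. The 3 columns of cardiomyocyte counts were taken alone, and the cells of the other fraction were not analysed here. The labels name 3 hearts but do not tie a library number to a heart, so the spread between libraries may be technical as well as biological.

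A microRNA gene is transcribed as a long precursor whose hairpin is cut out by Drosha and then by Dicer. The hairpin yields a 5p and a 3p arm, and one of them is usually kept in an Argonaute protein, where bases 2 to 8, the seed, pair with target messages. In heart muscle, miR-1 and miR-133a come from shared primary transcripts, while miR-208a, miR-208b and miR-499 lie in introns of myosin heavy chain genes. A change of the arm or of 1 base of the seed changes the set of targets, which is why arms and seeds were counted apart.

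Of the 20 most abundant arms, 12 had a mature sequence in the RefSeq table for GRCm38.p6. Those that carry most of the matched counts are given with the seed in capitals, grouped by shared seed, since members with the same seed can be summed as a target class. miR-22-3p stood alone with its seed among the arms of the table that had a sequence.
miR-22-3p: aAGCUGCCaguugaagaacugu
The miR-181 arms share a seed, and miR-181a and miR-181c are the members with the most counts.
miR-181a-5p: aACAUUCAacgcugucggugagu
miR-181c-5p: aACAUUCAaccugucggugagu
Of the let-7 arms shown, let-7f, let-7a and let-7c have the most counts, and let-7d is the member whose 2 arms were both abundant.
let-7f-5p: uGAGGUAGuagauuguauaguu
let-7c-5p: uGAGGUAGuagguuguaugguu
let-7a-5p: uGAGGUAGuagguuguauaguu
let-7d-5p: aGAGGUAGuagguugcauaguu
The miR-30 arms matter for arm use, because the 3p arm of miR-30e and of miR-30a carries another seed than the 5p arm.
miR-30a-5p: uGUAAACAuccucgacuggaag
miR-30c-5p: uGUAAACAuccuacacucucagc
miR-30e-5p: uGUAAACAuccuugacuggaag
miR-30a-3p: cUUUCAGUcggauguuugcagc
miR-30e-3p: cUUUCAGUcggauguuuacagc
Other high arms shown belong to other seeds, and not every high arm with a sequence is shown.
miR-26a-5p: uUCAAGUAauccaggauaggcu
miR-27b-3p: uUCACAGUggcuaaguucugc
miR-148a-3p: uCAGUGCAcuacagaacuuugu
miR-191-5p: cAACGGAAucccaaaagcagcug
miR-10a-5p: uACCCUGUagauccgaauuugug
miR-126a-3p: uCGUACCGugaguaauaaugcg

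The table lists 850 mature arms of 517 precursors. Summed counts were 412739 in library 1, 3062706 in library 2 and 6311625 in library 3, a 15.3-fold range. A count of 0 in library 1 allows up to 7.27 CPM (counts scaled in the usual way to a library's summed counts), against 0.980 CPM in library 2 and 0.475 CPM in library 3. Intervals and these limits cover counting error only, since the reads carry no molecular identifiers. The libraries held counts for 352, 572 and 652 arms. Drawn down to the depth of library 1, library 2 would be expected to hold 386 arms and library 3 would hold 382, so most but not all of the gap in detected arms goes with depth. A total of 325 arms were detected in all 3 libraries and held 99.96% of the counts by mean, while 126 arms were at 0 in all 3.

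Libraries 1 and 3 differed most in composition, and library 2 lay between them, nearer to library 3 by the correlation and the counts in common. Over the 169 arms with at least 10 counts in every library, Pearson's correlation of log2 CPM across arms was 0.953 between libraries 2 and 3, 0.899 between libraries 1 and 2, and 0.782 between libraries 1 and 3. Arms are not independent replicates, so these are descriptions. Libraries 1 and 3 had 54.9% of their counts in common arm by arm, libraries 1 and 2 had 71.9%, and libraries 2 and 3 had 77.9%. More than a 2-fold difference separated libraries 1 and 3 for 99 of these 169 arms, and libraries 2 and 3 for 42. Library 1 is also the shallowest and library 3 the deepest, so depth and whatever else set the libraries apart cannot be told apart. No pair agreed within sampling noise: the chi-square per degree of freedom was 258 for libraries 1 and 2, 817 for 1 and 3, and 768 for 2 and 3. Each library was therefore counted as its own sample.

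**Figure D1:**
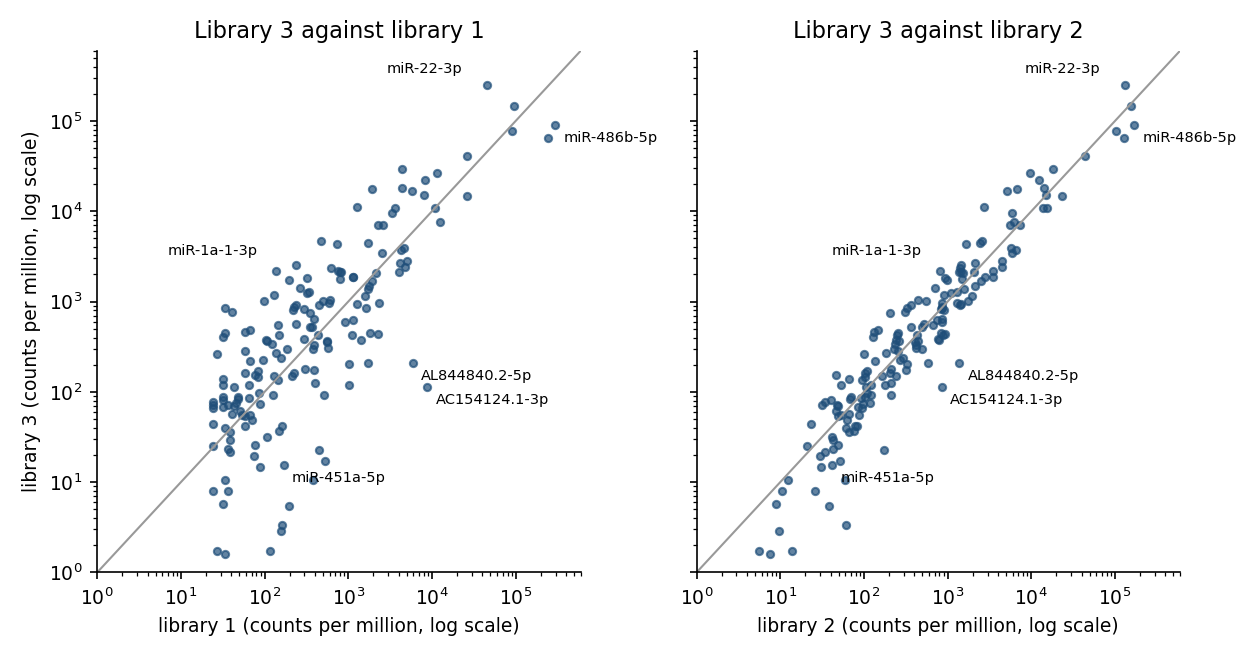
CPM of library 3 (y) against library 1 (left) and library 2 (right), both axes on a log scale, for the 169 arms with at least 10 counts in every library; the line marks equal levels. Library 3 lies nearer to library 2 (Pearson's correlation 0.953) than to library 1 (0.782), and AC154124.1-3p and AL844840.2-5p lie far on the side of library 1.

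A few arms made up most of the repertoire. The counts were headed by both miR-486 5p arms, miR-22-3p, both miR-133a 3p arms and miR-378a-3p, all of them known from striated muscle or widely expressed. The 10 arms with the highest mean share held 84.3%, 79.3% and 76.2% of the counts in libraries 1, 2 and 3 (79.9% ± 4.1, SD, n = 3), and the highest 20 held 89.8%, 88.5% and 88.7% (89.0% ± 0.66). The share of the highest 20 differed little between libraries although its make-up did. It took 2, 4 and 4 arms to reach 50% of the counts, 17, 22 and 23 to reach 90%, and 81, 92 and 96 to reach 99%. Each library's own 10 highest arms had 6 in common across all 3, and 14 of the 20 highest were common.

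miR-486b-5p was highest by mean, at 29.4%, 16.8% and 8.98% of libraries 1, 2 and 3 (18.4% ± 10.3, SD, n = 3). This first place rests on library 1: without it miR-22-3p led with 19.1%, followed by miR-133a-2-3p with 15.0% and miR-486b-5p with 12.9%. miR-486b-5p is encoded on chromosome 8 (mm9, 24253101 to 24253121, minus strand) and was deposited as the opposite strand of Mir486. Its partner miR-486a-5p, from the facing strand at 24253059 to 24253080 inside an intron of Ank1, the gene of an ankyrin of muscle and red cells, stood at 24.1%, 12.9% and 6.53%. Both arms were highest in library 1 and lowest in library 3. Within each library the ratio of miR-486b-5p to miR-486a-5p was 1.22, 1.31 and 1.38, so the pair moved together. The hairpins face each other and are near-identical, so how reads were shared between them is uncertain.

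miR-22-3p, from chromosome 11 (75277274 to 75277295, plus strand, in an exon of Tlcd2 in the deposited annotation), was the reverse case. It held 4.51% of library 1, 13.2% of library 2 and 25.0% of library 3 (14.2% ± 10.3). It ranked 5, 3 and 1. The 95% Wilson interval of library 1 ended at 4.58%, far below the other libraries' values, so counting does not account for that spread.

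miR-133a-3p is the muscle microRNA with the most counts. The copy miR-133a-2 on chromosome 2 (180133142 to 180133163, plus strand, between protein-coding genes) held 9.64%, 15.4% and 14.5% of the libraries, and ranked 3, 2 and 2. The copy miR-133a-1 held 2.61%, 4.39% and 4.13%. Library 1 was lowest for both, and libraries 2 and 3 were close. Mature sequences of the 2 copies are near-identical, so the split between them is uncertain, and the 2 are best read as a sum.

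miR-378a-3p, which lies in an intron of Ppargc1b, a coactivator gene of mitochondrial metabolism, held 9.03%, 10.2% and 7.78% of the libraries (9.01% ± 1.22). Its coefficient of variation (CV, the SD divided by the mean) of 13.5% was the smallest of the 20 highest arms. It was deposited as the opposite strand of a clone-named precursor. It ranked 4, 5 and 4.

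Below these 6 arms no arm passed 3% in any library. miR-181a-2-5p held 2.62%, 2.33% and 1.47% of the libraries, and miR-181a-1-5p held 1.09%, 1.55% and 1.08%. miR-27b-3p, inside an intron of 2010111I01Rik, held 0.442%, 1.82% and 2.93%, and miR-143-3p held 1.15%, 0.968% and 2.63%. miR-148a-3p held 0.822%, 1.23% and 2.22%. These levels overlap from arm to arm, so the order within this group is not fixed by 3 libraries.

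The rest of the 20 highest lay between 0.128% and 1.82% in any library. miR-26a-2-5p, inside Ctdsp2, held 0.436%, 1.44% and 1.82%. miR-30d-5p held 0.813%, 1.48% and 1.51%, miR-30a-5p held 0.579%, 0.518% and 1.66%, miR-30c-2-5p held 0.263%, 0.733% and 0.710%, and miR-30e-5p held 0.128%, 0.271% and 1.13%. The miR-30 arms did not share a pattern: miR-30e-5p was 8.84 times higher in library 3 than in library 1. let-7f-2-5p, inside an intron of Huwe1 on chromosome X, held 1.24%, 0.622% and 0.766% and was highest in library 1. miR-191-5p held 0.361%, 1.40% and 1.10%, miR-126a-5p held 0.193%, 0.677% and 1.79%, and miR-10a-5p held 0.334%, 0.590% and 0.964%. Of the 20 arms, 12 were lowest in library 1, 5 in library 3 and 3 in library 2, and 13 were 5p arms.

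**Figure D2:**
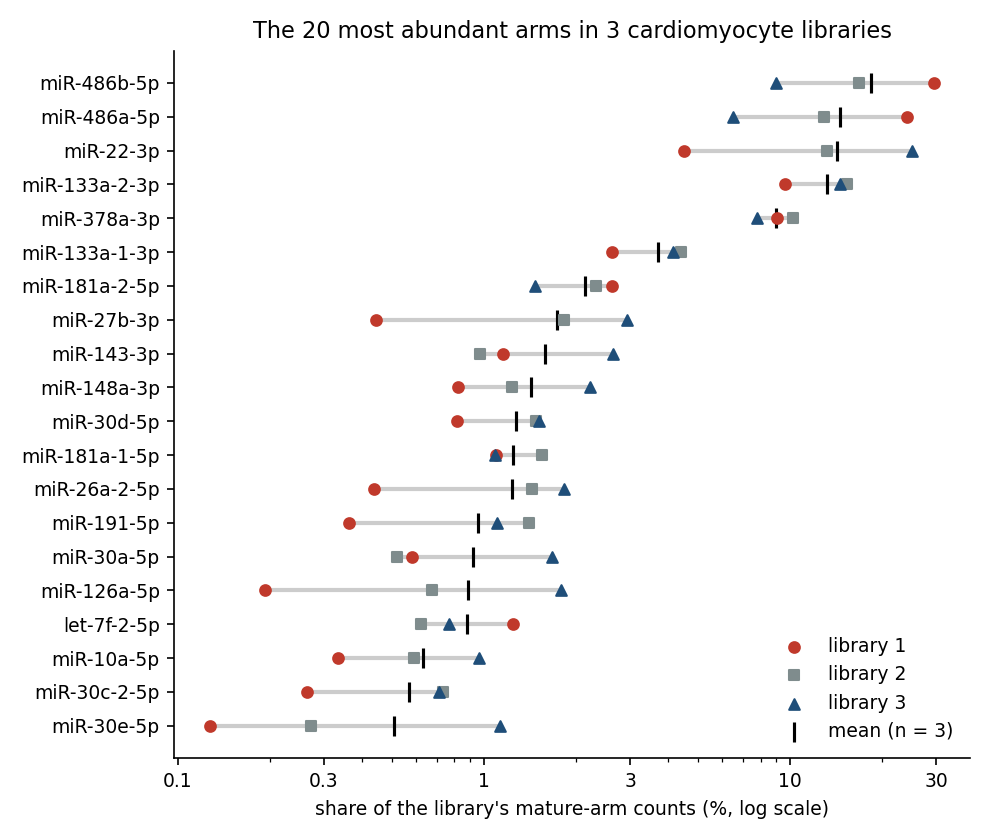
Share of each library's counts (x axis, percent, log scale) for the 20 arms with the highest mean; points are libraries, the black tick is the mean (n = 3) and the grey line spans the libraries. miR-486b-5p runs from 8.98% to 29.4%, while miR-378a-3p stays between 7.78% and 10.2%.

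Summed by family name over all arms and copies, 12 families held a mean of 1% or more, and together they held 93.5%, 91.6% and 91.9% of libraries 1, 2 and 3 (92.3% ± 1.0, SD, n = 3) out of 419 families. The 3 highest alone held 70.5%, 62.9% and 59.3%. The miR-486 family held 53.7%, 29.8% and 15.5% (33.0% ± 19.3), the miR-133 family 12.3%, 19.8% and 18.8% (17.0% ± 4.1), and the miR-22 family 4.51%, 13.2% and 25.0% (14.2% ± 10.3). The order of these 3 differed between libraries: miR-486 ranked 1, 1 and 3, while miR-22 ranked 4, 3 and 1 and miR-133 ranked 2 in all. By these means miR-133 and miR-22 do not differ beyond their spread.

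Some of the other families were steadier. The miR-378 family held 9.05%, 10.3% and 7.87% (CV 13.5%), let-7, which represses growth genes in many differentiated cells, 3.83%, 3.26% and 2.84% (CV 15.0%), and miR-181 4.33%, 4.44% and 3.24% (CV 16.5%). These 3 had the lowest CVs of the 12 families. The miR-30 family held 2.30%, 3.60% and 5.65%, miR-26 held 0.686%, 2.14% and 2.77%, and miR-27 held 0.482%, 1.89% and 3.08%. All 3 were lowest in library 1 and highest in library 3. miR-143 held 1.15%, 0.970% and 2.63%, miR-148 held 0.856%, 1.32% and 2.31%, and miR-126 held 0.267%, 0.844% and 2.22%, the widest of the 12 by CV (90.5%).

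Because a share depends on what else is in the library, the families were also taken without miR-486, a choice made after seeing the data. The miR-133 family then held 26.5%, 28.2% and 22.2% (CV 12.1%, from 24.1% with miR-486), and miR-30 held 4.98%, 5.12% and 6.69% (CV 17.0%, from 43.9%). These 2 became steadier, whereas miR-378 became wider at 19.6%, 14.7% and 9.32% (CV 35.3%) and let-7 at 8.28%, 4.64% and 3.37% (CV 46.9%). The miR-22 family stayed wide at 9.75%, 18.9% and 29.6%. Which families look steady thus depends on whether miR-486 is in the total.

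**Figure D3:**
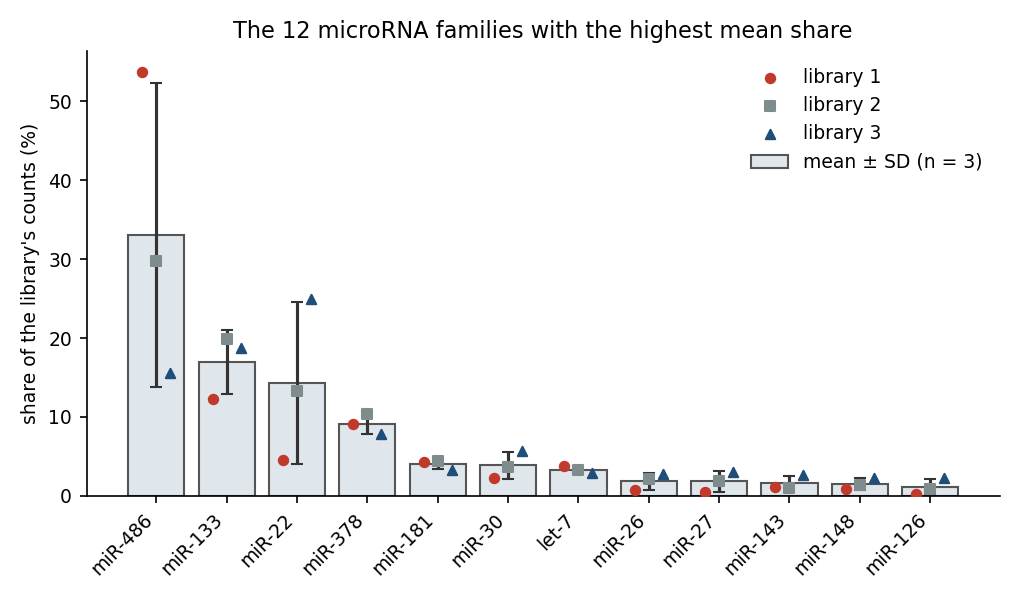
Share of each library's counts (y axis, percent) held by the 12 families with the highest mean share; bars and error bars are the mean ± SD (n = 3), points are libraries. The miR-486 points spread from 15.5% to 53.7%, whereas the miR-378, miR-181 and let-7 points lie close together.

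Families differed in how many members carried them. miR-133a-3p made up 99.6% ± 0.15 (SD, n = 3) of the miR-133 family, and miR-22-3p, miR-143-3p and miR-378a-3p each held over 99% of theirs by mean. The let-7 family was spread: let-7f-5p held 43.4%, 25.5% and 36.2% of it, let-7a-5p held 16.6%, 23.9% and 18.9%, and let-7c-5p held 15.2%, 25.9% and 17.0%. In the miR-30 family, miR-30d-5p held 35.3%, 41.2% and 26.8%, miR-30a-5p 25.2%, 14.4% and 29.4%, and miR-30c-5p 14.9%, 26.1% and 16.3%. miR-181a-5p held 85.6%, 87.4% and 78.6% of its family, and miR-181c-5p held 3.98%, 5.46% and 13.6%.

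By seed the picture covers fewer counts, because 629 of the 850 arms, with 19.7%, 34.6% and 50.1% of the counts of libraries 1, 2 and 3, matched a mature sequence. AGCUGCC, the seed of miR-22-3p, held 4.51%, 13.2% and 25.0%, the same as the arm itself. ACAUUCA, shared by the 4 miR-181 5p arms, held 4.21%, 4.33% and 3.17%. GAGGUAG, which joins 10 mature names of let-7 and relatives such as miR-98, held 3.29%, 2.61% and 2.40%. This sum is without the copy let-7a-2-5p, which had no sequence and held 72.2%, 72.6% and 72.0% of the let-7a-5p counts. GUAAACA of miR-30a, miR-30c and miR-30e held 1.05%, 1.73% and 3.71%, without miR-30d and miR-30b. The next were UCAAGUA of miR-26 at 1.86% ± 1.07, UCACAGU of miR-27 at 1.81% ± 1.3, CAGUGCA of miR-148 and miR-152 at 1.49% ± 0.74, AACGGAA of miR-191 at 0.953% ± 0.534, ACCCUGU of miR-10 at 0.820% ± 0.319 and CCCUGAG of miR-125 and miR-351 at 0.560% ± 0.276 (mean ± SD, n = 3).

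Among matched arms with a count in any library, 210 of 544 (38.6%) began with U, the base that Argonaute favours at the 5′ end, 143 (26.3%) with A, 130 (23.9%) with C and 61 (11.2%) with G. Weighted by counts, U stood at 44.0%, 38.7% and 37.2% of the matched counts of libraries 1, 2 and 3, and A at 48.8%, 53.9% and 58.2%. Matched counts were only 19.7%, 34.6% and 50.1% of these libraries, so which base leads in a whole library is not shown. miR-22-3p and the miR-181 arms, printed above, begin with A. G was at 0.187%, 0.145% and 0.170%. Sequences of 22 bases held 61.2%, 67.0% and 78.0% of the matched counts and sequences of 23 bases held 29.6%, 23.1% and 13.0%. Over the same 544 matched arms, mean GC content weighted by counts was 45.4%, 45.8% and 45.1%, against 48.8% unweighted. First bases, lengths and GC content of whole libraries are not given by these values. The miR-486 and miR-133a arms, among the most abundant, had no sequence.

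Check of the cell type came from marker microRNAs. The muscle list of 7 microRNAs summed to 123097, 199950 and 192185 CPM in libraries 1, 2 and 3, and 6 of the 7 had more than 3 counts in every library. miR-206, a skeletal muscle microRNA, was at 0 in all 3, which allows up to 0.475 CPM in library 3. Nearly all of the sum was miR-133a. miR-1a, which shares its transcripts with miR-133a and is known as an abundant heart microRNA, had 71, 3471 and 18988 counts, or 172, 1133 and 3008 CPM. Its arm miR-1a-1-3p ranked 104, 66 and 34. Within a library, miR-133a counts exceeded miR-1a counts 713-fold (95% exact interval 565 to 913) in library 1, 175-fold in library 2 and 62.3-fold in library 3. Both loci of this pair gave like ratios: 699, 192 and 67.4 on chromosome 2, and 772, 133 and 49.1 at the other locus. The copies share a mature name and how reads matching both were counted is not known, so the loci are not independent readings. No value here shows why miR-1a was low, and its level in the cells was not tested another way.

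The myosin microRNAs were low in all libraries. miR-499, in an intron of Myh7b, had 41.2, 310 and 774 CPM. miR-208a, in an intron of the adult myosin gene Myh6, had 55.7, 143 and 282 CPM, and miR-208b, in an intron of Myh7, had 31.5, 130 and 403 CPM. All were lowest in library 1 and highest in library 3. With both arms summed, the ratio of miR-208b to miR-208a was 0.565 in library 1 (13 against 23 counts, 95% exact interval 0.263 to 1.16). It was 0.909 in library 2 (0.792 to 1.04) and 1.43 in library 3 (1.35 to 1.52). The intervals of libraries 1 and 2 include equal levels, so a change of order is not shown. By the 3p arms alone, miR-208b had 13, 398 and 2544 counts and miR-208a had 5, 113 and 1058. miR-133b had 104, 241 and 378 CPM.

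Markers of other cell types were present at varying levels. miR-126a, made in endothelial cells from Egfl7, summed to 0.267%, 0.844% and 2.22% of the libraries. The mural pair miR-143 and miR-145a summed to 1.17%, 1.04% and 2.70%. The fibroblast list (miR-199a, miR-199b, miR-214, and miR-21a, which is broad) summed to 829, 874 and 1654 CPM, led by miR-21a at 603, 444 and 1042 CPM and miR-199a at 189, 376 and 562 CPM. miR-199b had 24.2, 23.8 and 31.1 CPM, and miR-214 had 12.1, 31.0 and 19.6 CPM. The white blood cell list summed to 533, 1053 and 843 CPM, of which miR-150 gave 390, 868 and 651 CPM, miR-155 gave 65.4, 121 and 120 CPM, miR-142a gave 60.6, 49.6 and 56.7 CPM and miR-223 gave 17.0, 13.4 and 15.5 CPM. In bulk RNA, fewer cells of a type and less RNA per cell cannot be told apart. The part of these cells in any share above was not tested.

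Red blood cell markers had the same order of libraries as miR-486. miR-451a, a red cell microRNA cut by Argonaute 2 instead of Dicer, had 170, 41.8 and 15.5 CPM (70, 128 and 98 counts). miR-144, from the same locus, had 26.7, 5.88 and 1.90 CPM, on only 11, 18 and 12 counts. Both were highest in library 1 and lowest in library 3, as were miR-486a and miR-486b. The same order was found in 50 of the 169 arms with at least 10 counts in every library, so it is not particular to red cell markers. Per count of miR-451a there were 1433, 3100 and 4232 counts of miR-486a. Whether red cell RNA contributed to miR-486, which muscle makes too, was not tested.

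Other lists were near 0. miR-122 of liver had 0, 3 and 7 counts, miR-375 of islets had 0, 5 and 3, and the 5 epithelial microRNAs together had 0, 31 and 74, of which miR-200c had 0, 20 and 17, miR-141 had 0, 5 and 34, miR-200b had 0, 6 and 17, and miR-200a and miR-429 each had 0, 0 and 3. In the neuron list miR-124 had 0, 0 and 1 counts, miR-9 had 29.1, 22.2 and 29.6 CPM, and miR-128, which muscle also makes, had 172, 359 and 288 CPM. Of the 9 embryonic stem cell microRNAs only miR-295 is in the table, and it was at 0 in all libraries.

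Arm use was read for precursors with at least 50 counts in every library over both arms. A total of 95 precursors passed, and 86 of them have both arms listed. Of these 86, 40 were 5p-dominant (90% or more of the counts in the 5p arm in every library), 25 were 3p-dominant (10% or less), 3 were mixed (20% to 80% in every library) and 18 fell between these classes. The median share of the major arm was 99.4%. The SD between libraries of the 5p share had a median of 0.426 percentage points, against 0.243 from counting alone. Over all arms of a library, 5p arms held 67.4%, 49.0% and 36.8% of the counts, lowest in library 3, where both miR-486 5p arms were lowest and miR-22-3p was highest.

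The most abundant 5p-dominant precursors were miR-486b, miR-486a, miR-181a-2, miR-30d and miR-181a-1. miR-486b had 99.97%, 99.98% and 99.98% of its counts in the 5p arm, and miR-486a had 99.1%, 99.3% and 99.3%. miR-181a-2 had 96.0%, 96.3% and 97.2%, miR-30d had 99.97%, 99.7% and 99.5%, and miR-181a-1 had 99.4%, 99.4% and 99.2%. The most abundant 3p-dominant precursors were miR-22, miR-133a-2, miR-378a, miR-133a-1 and miR-27b. Their 5p share was 0.0107%, 0.0545% and 0.0433% for miR-22, 0.153%, 0.161% and 0.292% for miR-133a-2, 0.244%, 0.872% and 1.03% for miR-378a, 0.259%, 0.310% and 0.528% for miR-133a-1, and 2.36%, 0.229% and 0.108% for miR-27b. The major arm of these 10 precursors was the same and held at least 96.0% of their counts in every library. The shares still differed beyond counting, since the 95% Wilson intervals of the 3 libraries did not all overlap for any of the 10. Copies of miR-133a are near-identical, as are the 5p arms of the miR-181a copies, whose 3p arms differ in sequence. Arm use of these copies is uncertain one by one. Summing copies left 34 5p-dominant, 22 3p-dominant and 3 mixed microRNAs of 77.

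Only 3 precursors were mixed in every library, a number that rose to 13 of 147 without library 1, where more precursors reach the minimum, and to 29 of 182 in summed counts. let-7d on chromosome 13 had 67.5%, 74.9% and 74.1% of its counts in the 5p arm (95% Wilson interval in library 1, 64.8% to 70.2%). miR-423 on chromosome 11 had 48.8%, 41.2% and 31.3%. The third, AC113316.1, a precursor known only by its clone name, had 66.1%, 60.5% and 66.0%, with intervals that overlap among the 3 libraries.

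A range of the 5p share above 20 percentage points between libraries was found in 5 of the 86, a limit set after the values were seen. miR-30e, in an intron of Nfyc, had 42.9% of its counts in the 5p arm in library 1, 63.2% in library 2 and 89.2% in library 3. It was the only precursor of the 86 whose major arm differed between libraries. Its 3p arm, which carries another seed, stood at 1701, 1578 and 1363 CPM, while its 5p arm stood at 1277, 2713 and 11288 CPM. On the library totals the 5p arm thus differed more than the 3p arm. CPM depends on what else is in a library, so which arm changed in the cells was not tested. miR-676 had 2.69%, 14.4% and 31.9%, miR-151, in an intron of Ptk2, had 18.7%, 43.8% and 39.7%, and miR-30c-2 had 72.3%, 95.7% and 97.2%. These 4 had their lowest 5p share in library 1. miR-128-1 went the other way, at 27.8%, 8.92% and 3.42%, with only 54 counts in library 1. Directions were mixed below the limit too: miR-423, above, and miR-744 (98.2%, 90.8% and 82.6%) were highest in library 1, while miR-30a (83.5%, 87.3% and 96.4%) and miR-126a (72.2%, 80.2% and 80.4%) were lowest there.

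**Figure D4:**
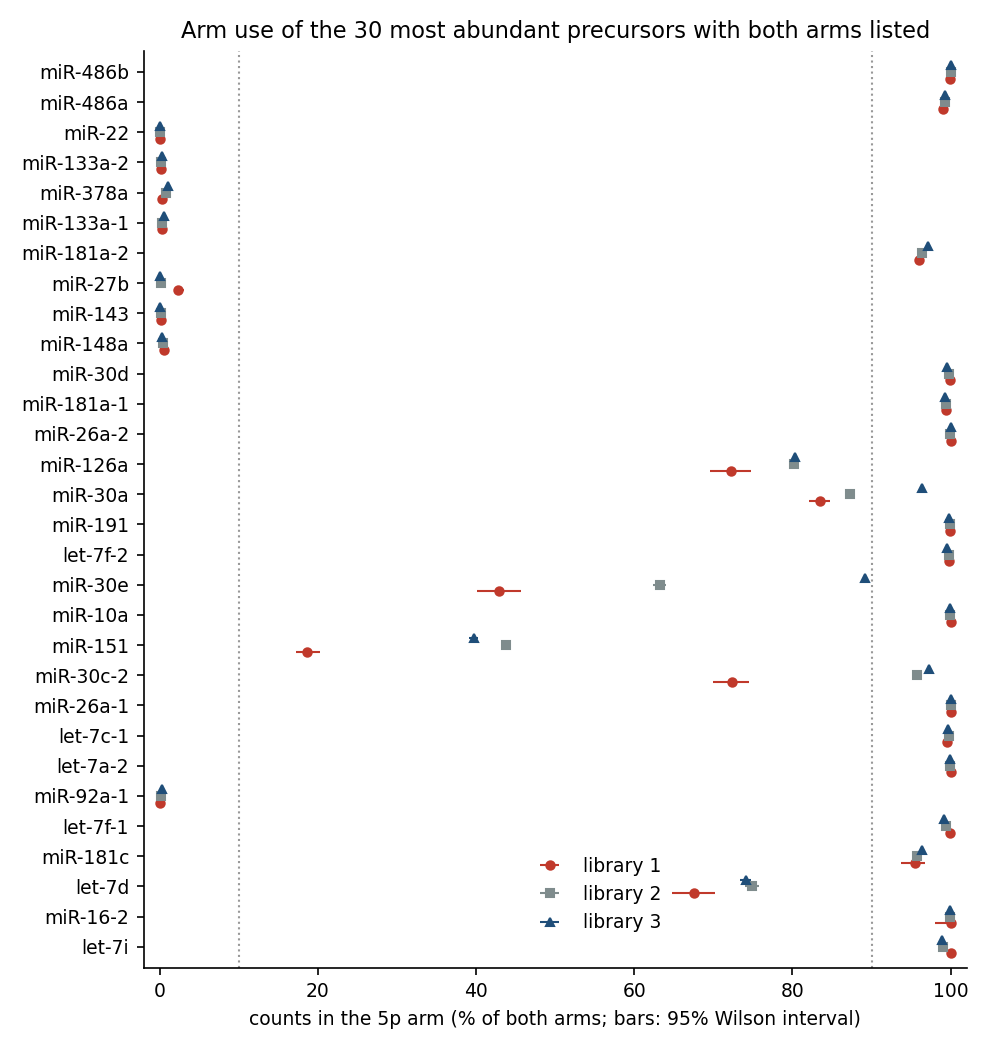
Share of a precursor's counts in its 5p arm (x axis, percent of both arms) for the 30 most abundant precursors with both arms listed; points are libraries, bars are 95% Wilson intervals for counting error, and dotted lines mark 10% and 90%. Most precursors sit at either edge, while miR-30e spans 42.9% to 89.2%.

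The spread between libraries was far wider than counting. Over the 169 arms with at least 10 counts in every library the median CV was 49.5%, where counting alone gives 4.84%, and 152 of 169 (89.9%) had a CV more than 2 times that of counting. In edgeR's model without groups the common biological coefficient of variation, the spread left after counting, was 66.9%. It was 44.6% without library 1, over 308 arms, 83.7% without library 2 and 60.2% without library 3. From 30 CPM upwards the spread hardly depended on level: the median CV was 50.4% for the 13 arms above 10000 CPM, 48.8% for the 41 arms from 1000 to 10000 CPM and 45.1% for the 42 arms from 30 to 100 CPM, while the 7 arms under 30 CPM had 68.8%. Library 2 lay between the other two for 107 of the 169 arms: 57 were lowest in library 1 and highest in library 3, and 50 were the reverse.

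Some arms at high level had steady shares of the library totals. Which ones look steady depends on miR-486 being in the total. Without that family, the CV was 35.3% for the miR-378 family and 46.9% for let-7, against 12.1% for miR-133 and 17.0% for miR-30. Among the 54 arms with a mean of 1000 CPM or more, the lowest CVs were those of miR-30e-3p (11.1%), miR-378a-3p (13.5%), miR-10b-5p (17.2%, at 2137, 1535 and 2066 CPM), let-7a-1-5p (17.6%), let-7a-2-5p (19.1%) and let-7b-5p (21.1%, at 1272, 1428 and 929 CPM). All of these values were still above counting, which gives 2.50% for miR-30e-3p and 0.328% for miR-378a-3p. The 2 arms of miR-30e thus stood near opposite ends of the list, since miR-30e-5p had a CV of 106%.

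Among the same 54 arms, the widest were AC154124.1-3p (148%), AL844840.2-5p (121%), miR-30e-5p (106%), miR-1a-1-3p (99.8%), miR-126a-5p (92.3%) and miR-126a-3p (83.4%). AC154124.1-3p, on chromosome 5 (17282577 to 17282599, minus strand, between protein-coding genes), had 8778, 858 and 113 CPM. AL844840.2-5p, on chromosome 2 (72850950 to 72850968, minus strand, between protein-coding genes), had 5917, 1375 and 208 CPM. Both are known only by clone names, and neither matched a mature sequence. Library 1 held 18.1 times the mean of libraries 2 and 3 for AC154124.1-3p and 7.48 times for AL844840.2-5p. Next in this direction among the 54 were miR-486a-3p (3.30 times), miR-423-3p (2.83 times) and miR-486a-5p (2.48 times). In the other direction, again among the 54, library 1 lay 10.7-fold below the mean of the other libraries for miR-1a-1-3p, 8.33-fold for miR-26b-5p, 7.69-fold for miR-16-2-5p, 6.39-fold for miR-126a-5p and 5.48-fold for miR-30e-5p. These orders hold for the 54 alone: below 1000 CPM miR-676-3p (15.1 times) and miR-744-5p (6.92 times), picked after their values were seen, were also higher in library 1. Among all 169 arms, 16 had a CV over 100%. Of the named arms with a sequence, miR-423-3p has 65.2% GC and miR-26b-5p has 33.3%. Over the 131 arms with a sequence and at least 10 counts in every library, the log2 ratio of library 1 to library 3 correlated weakly with GC content across arms (Pearson's r = 0.28), and that of library 2 to library 3 somewhat more (r = 0.42). The median ratio of library 1 to library 3 was 1.34 for the 25 arms above 55% GC, 0.621 for the 62 arms of 45% to 55%, 0.386 for the 34 arms of 35% to 45% and 0.583 for the 10 arms up to 35%, so it did not order all 4 groups by GC. Arms share libraries and some share sequences, so this is a description, and its part in the spread was not tested.

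**Figure D5:**
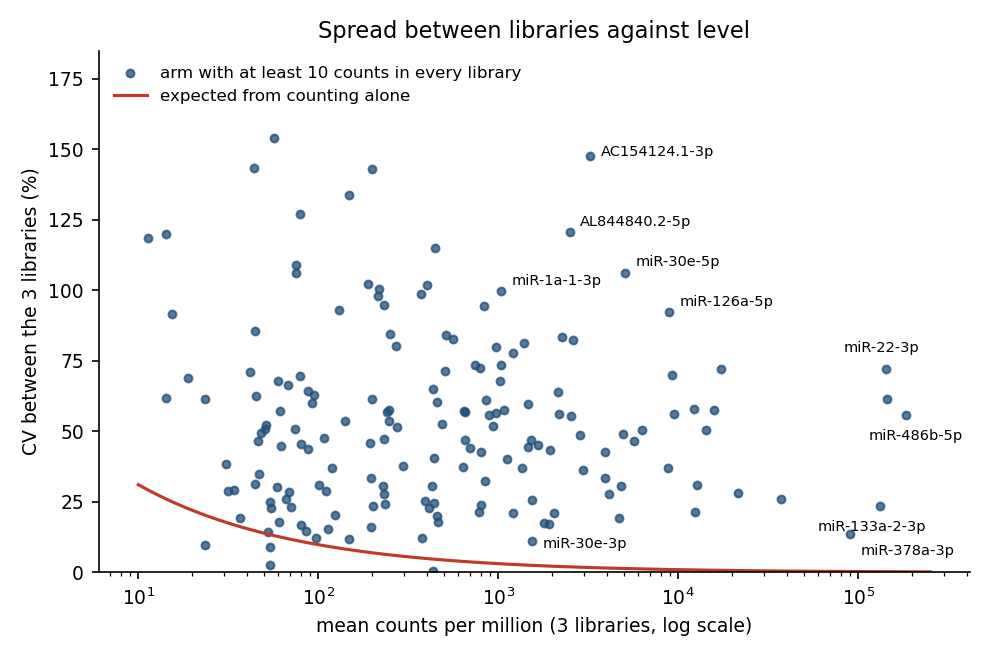
CV between the 3 libraries (y axis, percent) against mean CPM (x axis, log scale) for the 169 arms with at least 10 counts in every library; the red line is the CV from counting alone. The arms scatter around a median of 49.5%, most of them above the line, with miR-378a-3p at 13.5% and AC154124.1-3p at 148%.

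Precursors within 10 kb of each other on a strand formed 60 clusters of 233 precursors, which held 25.1%, 37.7% and 39.2% of libraries 1, 2 and 3. Members of a cluster are often cut from a shared transcript, yet their counts differed widely. miR-133a-2 with miR-1a-1 held 13.3% ± 3.2 (SD, n = 3), at 132092 ± 31086 CPM for miR-133a-2 and 1034 ± 1032 CPM for miR-1a-1. miR-133a-1 with miR-1a-2 held 3.77% ± 1.00, at 37250 ± 9663 and 404 ± 411 CPM. miR-181a-2 held 22186 ± 6339 CPM beside 442 ± 108 CPM for miR-181b-2, and the pair made up 2.26% ± 0.64. In the cluster of miR-27b, miR-24-1 and miR-23b (1.93% ± 1.37), miR-27b stood at 17373 ± 12446 CPM and miR-23b, the lowest, at 974 ± 546 CPM. miR-143 stood at 15846 ± 9117 CPM and miR-145a at 514 ± 314 CPM (1.64% ± 0.92), and miR-181a-1 at 12495 ± 2680 CPM and miR-181b-1 at 1529 ± 716 CPM (1.40% ± 0.26). Ratios within pairs were not fixed either: miR-143 to miR-145a was 75.4, 13.5 and 39.4 in libraries 1, 2 and 3, whereas miR-181a-2 to miR-181b-2 was 48.6, 59.0 and 42.6. Clusters with lower shares varied. Their ratio of the highest to the lowest mean CPM was, for example, 1.21 for let-7c-2 and let-7b, and 2294 for miR-92a-1 and miR-19a.

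Entries read from the strand facing an annotated precursor numbered 68 and held 39.3%, 28.9% and 18.5% of libraries 1, 2 and 3. A microRNA is known on that strand for 30 of them, and the 38 others held 15, 92 and 148 counts. The 5 most abundant were miR-486b-5p, miR-378a-3p, miR-191-5p, let-7f-1-5p (0.417%, 0.210% and 0.264%) and miR-24-1-3p (0.0196%, 0.0973% and 0.175%). Nearly all counts of these entries thus belong to microRNAs with a name.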

How the data were processed

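Small RNA counts of the 3 cardiomyocyte libraries were read from the deposited table, in which the authors give raw whole-number counts per mature arm. The submitters' processing notes name the build mm9 (NCBIM37) and, with no roles, HTSeq, edgeR, DESeq, TopHat 1.3.0 and Bowtie. How reads matching several precursors were counted is not given in the sources used here, so near-identical copies are uncertain. The line of totals equalled the column sums and was left out. Arms were named by deposited symbol (632), transcript identifier in GENCODE M21 (97) or the microRNA on the other strand (30), and 91 arms stayed unnamed (0.665% of counts by mean). Shares and CPM use library totals of 412739, 3062706 and 6311625. Sequences came from RefSeq, and gene context came from the deposited annotation. Dispersion was fitted with edgeR 4.0.16 in R 4.3.3. Other steps used Python 3.11.15 and were tested on simulated data. There is 1 group, so no test between groups was made. Arms named were the 20 highest by mean, the 12 highest families, 10 highest seeds and 6 highest clusters, every marker, the 5 most abundant precursors of each dominant class and up to 8 mixed ones, the 6 widest and 6 steadiest arms, the 5 with the largest ratio of library 1 each way, and the 5 highest opposite-strand entries. The members and lists were chosen with earlier results of these data known.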

Additional observations from a re-analysis of the deposited data

How the results depend on the processing

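With 3 libraries of 1 group and 15.3-fold unequal depth, the limits are the number of libraries and the shallow library 1, where arms under about 10 counts have wide intervals. The share of the 10 highest arms and the number of arms holding 90% of the counts moved by less than 1 SD or 1.5 times under every alternative tried. The 12 highest families held 90.6% without the most abundant arm, 89.8% of the matched counts when grouped by seed, and 89.5% without the miR-486 family, an alternative chosen after seeing the data, against 92.3%. The first place did change: in summed counts miR-22-3p held 20.4% and miR-486b-5p 12.3%, and without library 1 they held 19.1% and 12.9%. 5p-dominant precursors numbered 40, but 25 with at least 200 counts and 75 in summed counts, and from 40 to 61 when a library was left out. 3p-dominant precursors numbered 25, but 14 with at least 200 counts and 55 in summed counts, and from 25 to 42 when a library was left out. In both classes the highest number came without library 1, where more precursors (147 against 86) reach the minimum. The median CV was 96.8% with no filter on low counts and 43.0% without opposite-strand entries, and from 31.7% to 62.4% when a library was left out. The biological coefficient of variation was 61.9% with at least 100 counts, and from 44.6% to 83.7% when a library was left out. Clusters held 34.0% by mean, but 17.9% with a gap of 3 kb, since pairs such as miR-133a-2 and miR-1a-1 then part. Mixed precursors numbered 3, but 6 at a minimum of 20 counts, 29 in summed counts, and from 3 to 13 when a library was left out. With TMM and median-of-ratios scaling, counts were divided by a scaled library size, so the resulting percentages are not shares of a library. On these scales the 10 highest arms averaged 80.2% and 80.3%, and the 12 highest families 92.5% and 92.6%. A share of a library's own counts cannot change with such scaling. The median CV was 47.5% and 46.6%, and the biological coefficient of variation was 67.0% with both. Arm use and clusters were not run with these scalings. The number of arms holding 90% of a library cannot change with them. No paired analysis was possible because the 3 libraries are 1 group.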

Other observations

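The counts listed for copies that share a microRNA name had steady ratios for some and not for others. How reads matching several copies were counted is not known, so the split between near-identical copies is uncertain. Of 14 arms with several copies and at least 100 counts in every library, the share of the leading copy had an SD between libraries under 1 percentage point for 6 and of 1 point or more for 8, a limit set after the values were seen. Among the first, let-7f-2 held 74.9%, 74.7% and 74.3% of the let-7f-5p counts of libraries 1, 2 and 3, miR-16-2 held 82.7%, 82.3% and 82.3% of miR-16-5p, and miR-133a-2 held 78.7%, 77.8% and 77.9% of miR-133a-3p. miR-30c-2 held 76.9%, 77.9% and 77.2% of miR-30c-5p. Among the others, miR-181a-2 held 70.6%, 60.0% and 57.6% of miR-181a-5p, and miR-125b-2 held 60.5%, 66.9% and 68.2% of miR-125b-5p. miR-26a-2 held 66.0%, 72.1% and 72.3% of miR-26a-5p. The widest of the 14 was miR-30c-3p, of which miR-30c-2 held 81.9%, 61.4% and 55.8%. The 3p arms of miR-30c-2 and miR-30c-1 have 50% and 54.5% GC, so these are different sequences under a shared name.

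By place in the deposited annotation, 206 precursors in introns of a protein-coding gene on the same strand held 38.5%, 31.8% and 25.5% of libraries 1, 2 and 3, and 47 on the strand opposite to such a gene held 35.1%, 23.9% and 14.9%, of which miR-486b-5p alone made up 29.4%, 16.8% and 8.98%. The 43 in exons held 5.16%, 14.5% and 27.6%, of which miR-22-3p alone made up 4.51%, 13.2% and 25.0%. Precursors between genes, 260 of them, held 21.2%, 29.7% and 31.9%.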
